A study of Mus musculus with 18 samples.

Results

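Livers of 16-week-old mice given asparaginase were compared with livers of 16-week-old mice given PBS, by the labels of the deposited count table: 3 asparaginase libraries and 3 PBS libraries, 6 of the 18 libraries in the series. All mice were C57BL/6J, a background held for 8 generations or more by the design text, with no mutation named in their labels, and polyadenylated RNA of whole liver was counted per gene. The asparaginase mice received L-asparaginase (Elspar), a bacterial enzyme given to patients with leukaemia because it removes asparagine from the blood, by intraperitoneal injection in a daily dose of 3 IU for each gram of body weight, 7 injections in all. The PBS mice received the same volume of phosphate-buffered saline on the same schedule. Liver was taken 7.5 h after a morning injection. By the labels, asparaginase replicates 1 and 2 were male and replicate 3 was female, while PBS replicates 1 and 2 were female and replicate 3 was male, so within each sex one arm rests on 1 mouse. The series also holds 6 libraries of 8-week mice (8 injections) and 6 of 2-week mice (7 injections), 3 asparaginase and 3 PBS at each age, which share the model and are used below only to set the 16-week effects beside those at other ages. The labels treat each library as 1 mouse, and the p-values measure the spread between libraries. For 3 of the 2-week libraries, which held transcripts of both sexes and also enter this spread, that is uncertain.

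When a cell runs short of an amino acid, uncharged tRNA activates the kinase GCN2, which phosphorylates the initiation factor eIF2. Bulk translation slows, while the mRNA of the transcription factor ATF4 is translated better. ATF4 then acts with partners such as CHOP (Ddit3) and ATF5 on genes for amino acid synthesis, uptake and tRNA charging, through a short promoter element to which a C/EBP protein and an ATF protein bind as a pair. Liver is a main site of asparagine and serine metabolism and also makes most plasma proteins, among them the acute phase proteins, and the iron hormone hepcidin. Asparaginase treatment is known clinically for its effects on liver and pancreas.

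Total counts were between 24690871 and 46949361 in the asparaginase libraries and between 35862867 and 45358073 in the PBS libraries. No pair of columns was identical (0 pairs). Transcripts specific to one sex matched the label in all 6 libraries of this age. The major urinary protein genes, which are higher in males, took 39.1%, 46.0% and 13.7% of counts in asparaginase replicates 1 to 3, against 25.7%, 28.4% and 47.9% in PBS replicates 1 to 3. A panel of 12 hepatocyte genes summed to 68430, 69090 and 89100 CPM with asparaginase and to 102700, 87650 and 86320 CPM with PBS (CPM, counts per 1000000 on scaled library sizes), and no gene of this panel was at 0. Markers of tissues next to the liver were uneven. A panel of 18 pancreatic acinar genes summed to 413, 13.9 and 5037 CPM in asparaginase replicates 1 to 3 and to 13.2, 683 and 776 CPM in PBS replicates 1 to 3. A panel of 12 skeletal muscle genes summed to 5.03, 18.6 and 3.30 CPM with asparaginase and to 138, 253 and 43.0 CPM with PBS. All 11 muscle genes tested had groups that did not overlap, lower with asparaginase, 0 past the threshold in edgeR, 9 at an unadjusted p under 0.05 and 6 called in DESeq2, and Tnnc2 was at 0 throughout. The part of these tissues in the results was not tested. Of the younger libraries, 3 at 2 weeks held transcripts of both sexes; without them 26 genes rose and 3 fell at 16 weeks.

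Of 16213 genes tested, 31 rose with asparaginase (0.191% of those tested) and 7 fell (0.0432%), at an adjusted p under 0.05 in edgeR's quasi-likelihood test with Benjamini-Hochberg adjustment. "Rose" and "fell" are used below for genes past this threshold. Of these 38 genes, 36 had groups that did not overlap. Groups that did not overlap were common among all genes: 1639 genes were higher in every asparaginase library than in any PBS library (10.1%), and 1562 were lower (9.63%). At an unadjusted p under 0.05, 978 genes were higher and 862 lower. The median log2 fold change of all genes tested was 0, and each list below is read against that value and those shares. For a list with 0 calls in edgeR, the number of genes at an unadjusted p under 0.05 is given as unadjusted; limma also called 0 genes in every such list. Fewer genes were called without asparaginase replicate 3, the only treated female (5 rose and 0 fell), or without PBS replicate 3, the only PBS male (8 rose and 0 fell). With the sex term, the first of these fits compares the arms in males only and the second in females only. All 38 genes kept their direction in both, and the cause of the lower counts was not tested. Asns, Psat1, Phgdh, Pck2 and Cxcl13 were the 5 genes called in the main fit and in all 28 alternative settings of tool, scaling, filter, libraries and left-out library.

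**Figure D1:**
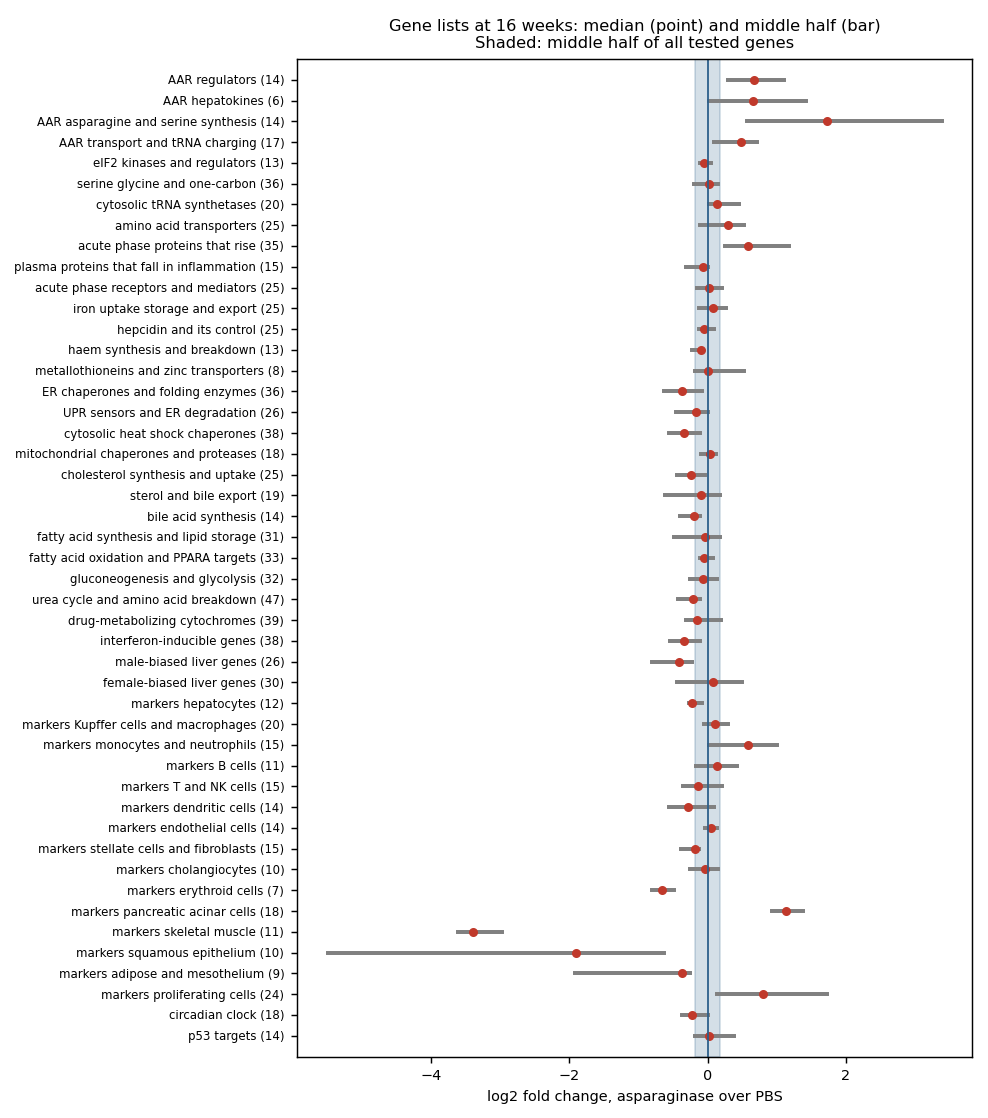
Log2 fold change, asparaginase over PBS, for each gene list at 16 weeks: the point is the median of the tested members (their number in brackets), the bar spans their interquartile range, and the shaded band is the interquartile range of all tested genes. The list of asparagine and serine synthesis genes stood highest at a median of 1.74, the acute phase list was at 0.59, the chaperone lists of the endoplasmic reticulum and cytosol were at -0.36 and -0.34, and the list named markers skeletal muscle was lowest at -3.39 (-1.81 without asparaginase replicate 3, -6.16 without PBS replicate 3).

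The clearest change was in the list of asparagine, serine and proline synthesis, which also held the folate enzyme gene Mthfd2 and the carboxykinase gene Pck2. Like the other lists, it was chosen with earlier results of these data known. Of 14 genes in that list, 7 rose and 0 fell, 10 had higher non-overlapping groups, and the median log2 fold change was 1.74. Asns, which encodes the enzyme that makes asparagine from aspartate and glutamine (chr6:7675169-7693254, minus strand, GRCm38), stood at 28.0, 27.8 and 13.1 CPM in asparaginase replicates 1 to 3 and at 0.749, 0.555 and 1.51 CPM in PBS replicates 1 to 3. The male asparaginase livers were the 2 highest, the treated female was lower, and every PBS liver was far below all of them. The log2 fold change of Asns was 4.27 (SE 0.26, adjusted p = 1.08e-05 in edgeR). Psat1, the second enzyme of serine synthesis from glycolytic 3-phosphoglycerate (chr19:15904678-15947337, minus strand), was at 19.1, 17.6 and 20.6 CPM with asparaginase, against 0.689, 0.496 and 0.525 CPM with PBS. Here the sexes stood close together in both arms. Its log2 fold change of 5.12 (SE 0.35, edgeR adjusted p = 1.75e-05) was the largest among the genes called.

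Of the other enzymes of serine synthesis, Phgdh rose and Psph did not pass. Phgdh, which commits 3-phosphoglycerate to serine, was at 4.61, 6.83 and 2.85 CPM with asparaginase, against 0.240, 0.409 and 0.280 CPM with PBS. Its log2 fold change was 3.66 (SE 0.39, edgeR adjusted p = 0.00124). The treated female was the lowest of the asparaginase livers and still well above every PBS liver. Phgdh has processed pseudogenes of near-identical sequence: Gm5847 was itself called higher (log2 4.65, SE 0.58, edgeR adjusted p = 0.00353), with 101 counts in asparaginase libraries and 4 in PBS libraries, and is 96.2% identical to Phgdh over 1596 bases, so how reads were split between them is uncertain. Psph, the last enzyme of the pathway, was at 8.69, 8.20 and 6.27 CPM with asparaginase, against 3.42, 2.75 and 4.41 CPM with PBS, with no overlap, a log2 fold change of 0.98 (SE 0.20) and an edgeR adjusted p of 0.0804.

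Mthfd2, the mitochondrial folate enzyme that handles the one-carbon unit from serine, was at 8.26, 8.92 and 6.86 CPM with asparaginase against 0.510, 0.263 and 0.945 CPM with PBS. The arms were widely apart in both sexes, and the log2 fold change was 3.66 (SE 0.34, edgeR adjusted p = 0.000348). Without asparaginase replicate 3, its adjusted p was 0.0635 in edgeR. Its companion Aldh1l2, a mitochondrial formyl-folate dehydrogenase named after its values were seen, was at 2.67, 2.74 and 1.71 CPM with asparaginase, against 0.150, 0.292 and 0.560 CPM with PBS (log2 2.58, SE 0.49, edgeR adjusted p = 0.064). Serine, glycine and one-carbon metabolism as a whole was mixed. Of 36 genes in that list 3 rose (Psat1, Phgdh and Mthfd2) and 0 fell, and its median was 0.02. Among those tested, 6 had higher and 11 had lower non-overlapping groups. One of the lower ones was Sds, serine dehydratase, which breaks serine down, at 35.4, 46.6 and 53.8 CPM with asparaginase and 93.7, 112 and 81.1 CPM with PBS (log2 -0.96, SE 0.29, edgeR adjusted p = 0.244).

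Aldh18a1 and Pycr1, which lead from glutamate to proline, both rose. Aldh18a1, which makes the proline precursor, was at 2.95, 3.70 and 3.26 CPM with asparaginase, against 1.23, 0.876 and 0.910 CPM with PBS (log2 1.74, SE 0.23, edgeR adjusted p = 0.00552). Pycr1, which makes proline itself, was at 0.809, 0.865 and 1.30 CPM with asparaginase, against 0.360, 0.292 and 0.315 CPM with PBS (log2 1.73, SE 0.29, edgeR adjusted p = 0.0319). Neither gene's groups overlapped, and the Pycr1 call was lost in 12 of the 28 alternative settings. Pck2, the mitochondrial phosphoenolpyruvate carboxykinase (chr14:55540266-55551242, plus strand), was at 9.56, 9.84 and 10.9 CPM with asparaginase, against 3.45, 3.56 and 2.45 CPM with PBS. The asparaginase livers were within a narrow band, and the PBS male was the lowest of all 6. The log2 fold change of Pck2 was 1.80 (SE 0.14, edgeR adjusted p = 8.09e-05). Its exons overlap Gm10876 on the other strand, and the use of strand in counting is not given in the sources used here.

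The promoters of 4 genes that rose held the amino acid response element in its short form, TGATGNAA, within 250 bases before the start. They are shown because these genes rose and carry the element. The element was searched on both strands in RefSeq promoters of GRCm38.p6. It was found in 4 of the 25 risen genes with a promoter in the table (16%), in 12 of 42 such genes of the 4 amino acid response lists (28.6%) and in 1056 of 27025 genes overall (3.91%). Each sequence below reads 5′ to 3′ along the strand of its gene, with the element in capitals (TTNCATCA is the same element on the other strand). Psat1, Phgdh, Mthfd2, Aldh18a1 and Atf5, which also rose, were not among the genes in which the element was found. A match is a description of the letters only, and the part of ATF4 in these rises was not tested.
Asns, chr6:7693210-7693256, minus strand, element 16 to 23 bases before the start: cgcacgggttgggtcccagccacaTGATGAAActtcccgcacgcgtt
Gars, chr6:55037947-55038000, plus strand, element 23 to 30 bases before the start: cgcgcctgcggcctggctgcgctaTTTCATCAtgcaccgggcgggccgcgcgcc
Pck2, chr14:55540139-55540194, plus strand, element 96 to 103 bases before the start: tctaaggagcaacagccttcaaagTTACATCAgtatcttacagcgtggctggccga
Pycr1, chr11:120643820-120643875, minus strand, element 96 to 103 bases before the start: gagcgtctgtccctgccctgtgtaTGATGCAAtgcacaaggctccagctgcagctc
Other genes of these lists that did not pass the test carry it as well: Aars, Atf3, Chac1, Jdp2, Slc7a11, Vldlr, Nupr1 and Fgf21. Among them, Atf3 and Chac1 had groups that overlapped. Only the regulator Nupr1 and the hormone gene Fgf21, described next, are shown, with the element 103 to 110 and 132 to 139 bases before their starts.
Nupr1, chr7:126625549-126625604, minus strand: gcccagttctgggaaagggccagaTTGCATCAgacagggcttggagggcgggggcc
Fgf21, chr7:45615598-45615653, minus strand: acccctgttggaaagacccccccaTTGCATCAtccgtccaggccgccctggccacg

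**Figure D2:**
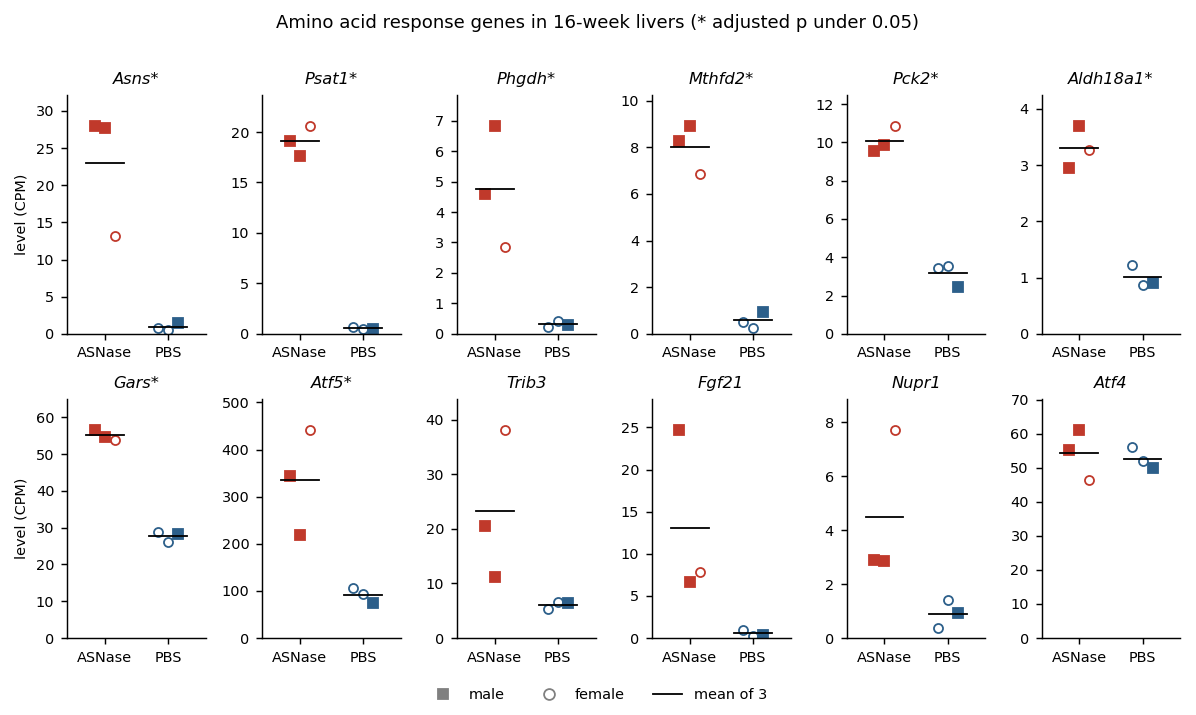
Level in CPM (vertical axis, from 0) of 12 amino acid response genes in each 16-week library, with asparaginase (ASNase) left of PBS, filled squares for males, open circles for females and a line at the mean of 3; an asterisk marks an edgeR adjusted p under 0.05. Asns, Psat1, Phgdh and Mthfd2 were near 0 in every PBS liver, Fgf21 was at 24.7 CPM in 1 asparaginase liver and under 8 CPM in the other 2, and Atf4 overlapped between the arms.

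Among 14 regulators of the response, 1 rose (Atf5) and 0 fell, 6 had higher non-overlapping groups, 0 had lower ones, and the median was 0.68 (0.43 without asparaginase replicate 3). Atf5, a transcription factor of the ATF4 family, was at 344.5, 219 and 441 CPM with asparaginase, against 106, 93.0 and 74.6 CPM with PBS. Its log2 fold change was 2.03 (SE 0.33, edgeR adjusted p = 0.0258). The treated female was highest and the arms did not overlap. Atf5 shares exons with Il4i1 and Nup62 on the other strand. The mRNA of Atf4 itself overlapped between the arms, at 55.2, 61.0 and 46.3 CPM with asparaginase and 56.0, 52.1 and 49.8 CPM with PBS (log2 0.00, SE 0.16, edgeR adjusted p = 1).

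Several further regulators were higher in every asparaginase liver without passing the threshold. Nupr1, a small stress-induced nuclear protein, was at 2.88, 2.86 and 7.71 CPM with asparaginase and 0.360, 1.40 and 0.910 CPM with PBS (log2 2.47, SE 0.46, edgeR adjusted p = 0.0563). Trib3, a pseudokinase that restrains ATF4 and AKT, was at 20.6, 11.2 and 38.1 CPM with asparaginase and 5.36, 6.57 and 6.44 CPM with PBS (log2 2.01, SE 0.40, edgeR adjusted p = 0.072). For both genes the treated female stood well above the treated males. Sesn2, a leucine sensor of the mTORC1 pathway, was at 8.40, 9.61 and 18.2 CPM with asparaginase and 6.32, 5.17 and 6.34 CPM with PBS (log2 1.10, SE 0.23, edgeR adjusted p = 0.0833). Eif4ebp1, a translation repressor named after its values were seen, was at 39.3, 36.5 and 33.4 CPM with asparaginase and 18.4, 19.0 and 23.4 CPM with PBS (log2 0.77, SE 0.18, edgeR adjusted p = 0.136). With DESeq2, 5 of the 14 regulators rose and 0 fell. The groups of Ddit3 (CHOP), Atf3 and Chac1, a glutathione-degrading enzyme, overlapped: their log2 fold changes were 0.54, 1.12 and 0.91, with edgeR adjusted p-values of 0.532, 0.417 and 0.627.

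The hormones of the response gave 0 calls among 6 genes in edgeR (unadjusted, 2 higher and 0 lower; DESeq2, 1 higher). Fgf21, the hormone by which a stressed liver acts on fat and brain, was at 24.7, 6.65 and 7.86 CPM with asparaginase, against 0.989, 0.292 and 0.350 CPM with PBS. All treated livers were above all PBS livers, and asparaginase replicate 1, a male, was well above the other 2 treated livers. The log2 fold change of Fgf21 was 4.31 (SE 0.86, edgeR adjusted p = 0.0777). Gdf15, an appetite-suppressing hormone, was at 5.73, 3.64 and 2.93 CPM with asparaginase and 1.98, 3.59 and 1.51 CPM with PBS, groups that overlapped (log2 0.82, SE 0.57, edgeR adjusted p = 0.626). Igfbp1, a binding protein for insulin-like growth factors, was at 147, 60.6 and 157 CPM with asparaginase and 67.2, 40.1 and 31.9 CPM with PBS, also overlapping (log2 1.63, SE 0.44, edgeR adjusted p = 0.187).

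Among genes for uptake and tRNA charging, 1 of 17 rose and 0 fell, 10 had higher non-overlapping groups, and the median was 0.48; DESeq2 called 7 higher. The gene that rose was Gars, glycyl-tRNA synthetase (chr6:55038007-55079500, plus strand), at 56.5, 54.7 and 53.9 CPM with asparaginase and 28.7, 26.1 and 28.2 CPM with PBS. Within each arm the livers differed little, and the log2 fold change was 0.98 (SE 0.12, edgeR adjusted p = 0.00267). Of 20 cytosolic tRNA synthetases, 10 had higher non-overlapping groups and 1 lower, with a median of 0.13. The asparaginyl enzyme gene Nars, named after its values were seen, was at 125, 122 and 103 CPM with asparaginase and 80.8, 70.3 and 91.4 CPM with PBS (log2 0.44, SE 0.13, edgeR adjusted p = 0.223). The seryl enzyme gene Sars was at 50.8, 47.3 and 43.1 CPM with asparaginase and 25.6, 27.1 and 30.7 CPM with PBS (log2 0.69, SE 0.16, edgeR adjusted p = 0.123).

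Amino acid transporters gave 0 calls among 25 genes in edgeR (unadjusted, 5 higher and 2 lower; DESeq2, 4 higher), with a median of 0.30 (0.14 without PBS replicate 3) and 7 higher and 2 lower non-overlapping groups. Slc7a1, a carrier of cationic amino acids, was at 3.09, 1.67 and 4.52 CPM with asparaginase and 0.689, 1.02 and 0.945 CPM with PBS (log2 1.90, SE 0.39, edgeR adjusted p = 0.0833). Slc3a2, the heavy chain shared by several exchangers, was at 45.5, 43.9 and 49.5 CPM with asparaginase and 29.9, 27.6 and 28.4 CPM with PBS (log2 0.72, SE 0.20, edgeR adjusted p = 0.207). The kinases and exchange factors acting on eIF2 gave 0 calls among 13 genes in edgeR and in DESeq2 (unadjusted, 2 lower), with a median of -0.05. The mouse genes with asparaginase activity of their own had groups that overlapped: Aspg was at 151, 119 and 141 CPM with asparaginase and 114, 126 and 120 CPM with PBS (log2 0.20, SE 0.22), and Asrgl1 had a log2 fold change of 0.13 (SE 0.18).

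Of the acute phase genes, Serpina3n and Itih4 rose, and 28 of 35 had a positive log2 fold change. These are plasma proteins that hepatocytes release in inflammation, driven chiefly by interleukin 6 through STAT3. Of 35 such genes tested, 2 rose and 0 fell in edgeR (10 rose in DESeq2), 17 had higher and 2 lower non-overlapping groups, and the median was 0.59. The whole list summed to 40470, 38610 and 34350 CPM with asparaginase and to 26260, 27580 and 23230 CPM with PBS. The STAT3 element, TTCCNGGAA, was also searched within 250 bases before the start. It was found in 2 of 25 genes of this list with a promoter (8%), against 295 of 27025 genes overall (1.09%). Among all genes that rose, 0 of 25 with a promoter held it. Serpina3n, a serine protease inhibitor, was at 609, 611 and 1018 CPM with asparaginase, against 298, 349.9 and 289 CPM with PBS (log2 1.37, SE 0.15, edgeR adjusted p = 0.0014). Itih4, an inhibitor heavy chain gene, was at 2706, 2602 and 2661 CPM with asparaginase and 1436, 1593 and 1359 CPM with PBS. All treated livers had nearly the same Itih4 level, and the log2 fold change was 0.89 (SE 0.14, edgeR adjusted p = 0.0188). Both calls were lost without asparaginase replicate 3 and without the sex term, where 0 genes of the list were called.

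The serum amyloid A genes Saa2 and Saa1 had the largest fold changes of this list but did not pass. Saa1 was at 761, 733.5 and 358 CPM with asparaginase, against 26.7, 38.6 and 35.8 CPM with PBS (log2 3.92, SE 1.19, edgeR adjusted p = 0.244; DESeq2 adjusted p = 0.0277). Saa2 was at 630.5, 586 and 340.4 CPM with asparaginase, against 17.8, 16.5 and 16.4 CPM with PBS (log2 4.76, SE 1.30, edgeR adjusted p = 0.194; DESeq2 adjusted p = 0.0101). No asparaginase liver was near the PBS range for either gene. Over the 28 alternative settings the adjusted p ran between 0.00657 and 0.741 for Saa1 and between 0.00137 and 0.717 for Saa2. Transcripts of Saa1 and Saa2 that retain introns are 96.7% identical over 2448 bases, so reads may have been shared between these genes. Saa3, the form made mainly outside hepatocytes, was at 16.0, 31.2 and 7.23 CPM with asparaginase and 4.05, 6.22 and 3.26 CPM with PBS (log2 1.65, SE 0.78, edgeR adjusted p = 0.459). Lcn2, which binds bacterial iron carriers, was at 31.9, 43.1 and 44.3 CPM with asparaginase and 6.59, 17.7 and 2.42 CPM with PBS (log2 2.79, SE 0.68, edgeR adjusted p = 0.147).

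Other major acute phase genes were higher by smaller amounts and did not pass. The haem-binding protein gene Hpx was at 5091, 5258 and 3286 CPM with asparaginase and 2345, 2663 and 2079 CPM with PBS (log2 0.85, SE 0.22, edgeR adjusted p = 0.176). Fga, the fibrinogen alpha chain gene, was at 4858, 4459 and 3958 CPM with asparaginase and 2645, 2591 and 2260 CPM with PBS (log2 0.82, SE 0.19, edgeR adjusted p = 0.114). The pentraxin gene Apcs was at 245, 157 and 189 CPM with asparaginase and 80.3, 96.1 and 31.4 CPM with PBS (log2 1.88, SE 0.45, edgeR adjusted p = 0.14). These 3 genes were named after their values were seen, and none had overlapping groups. The haemoglobin-binding protein gene Hp had a log2 fold change of 0.49 (SE 0.15) and the orosomucoid gene Orm1 one of 0.47 (SE 1.10), with edgeR adjusted p-values of 0.251 and 0.908 and groups that did not overlap. Not every member was higher: Crp was at 244, 280.5 and 245 CPM with asparaginase and 291, 329.9 and 308 CPM with PBS (log2 -0.29, SE 0.18, edgeR adjusted p = 0.589), and Serpina3m was also lower in each treated liver (log2 -0.48, SE 0.16, edgeR adjusted p = 0.29).

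The genes that relay the acute phase signal gave 0 calls among 25 in edgeR (unadjusted, 2 higher and 1 lower; DESeq2, 1 higher and 1 lower), with a median of 0.02. Stat3 was at 78.1, 84.3 and 58.8 CPM with asparaginase and 67.5, 76.8 and 72.2 CPM with PBS (log2 -0.06, SE 0.16), and its feedback inhibitor Socs3 had a log2 fold change of 0.17 (SE 0.28). Lifr, the receptor chain for leukaemia inhibitory factor, was at 171, 178 and 187 CPM with asparaginase and 409.9, 497 and 298 CPM with PBS, without overlap (log2 -1.03, SE 0.27, edgeR adjusted p = 0.174). Il6 and Tnf were below the count filter. Plasma proteins known to fall in inflammation gave 0 calls among 15 genes in edgeR and in DESeq2 (unadjusted, 3 lower), with a median of -0.06. Within that list Igf1 was at 355.5, 349.8 and 327 CPM with asparaginase and 594, 488 and 429 CPM with PBS (log2 -0.50, SE 0.21, edgeR adjusted p = 0.4).

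**Figure D3:**
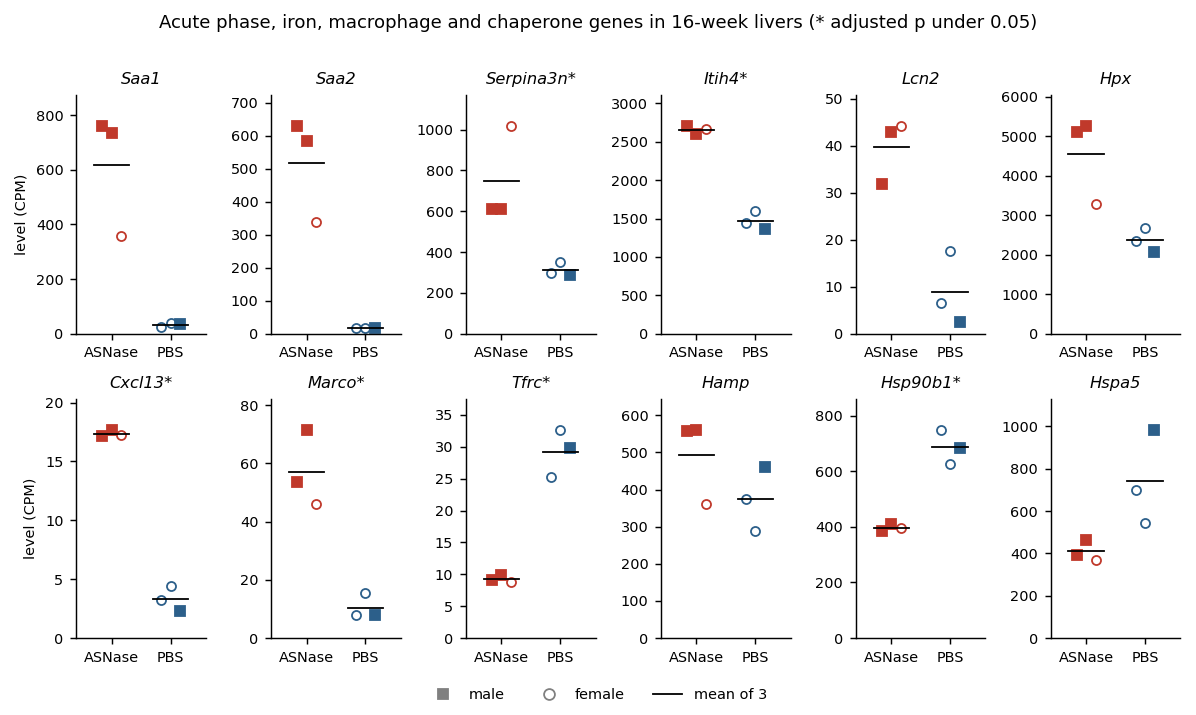
Level in CPM (vertical axis, from 0) of acute phase, macrophage, iron and chaperone genes in each 16-week library, drawn as in the plot of amino acid response genes. Saa1 and Saa2 were high in all 3 asparaginase livers and lowest of these in the female, Cxcl13 stood between 17.2 and 17.7 CPM in all 3, and Tfrc and Hsp90b1 were lower in every asparaginase liver, while Hamp overlapped.

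Iron genes showed 1 fall. Tfrc, the transferrin receptor through which cells take up iron (chr16:32608920-32632794, plus strand), was at 9.11, 9.90 and 8.71 CPM with asparaginase, against 25.3, 32.6 and 29.9 CPM with PBS. Both arms were tight and far apart, and the log2 fold change was -1.69 (SE 0.27, edgeR adjusted p = 0.0213). The call was lost without the sex term and without any 1 of 5 of the 6 libraries of this age (all but PBS replicate 1), with log2 fold changes between -1.76 and -1.61 over all settings. Of 25 genes for iron uptake, storage and export, 0 rose and 1 fell, with a median of 0.08, 7 higher non-overlapping groups and 3 lower ones.

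The ferritin heavy chain gene Fth1 (iron storage) was at 827, 853 and 857 CPM with asparaginase and 697, 713.5 and 779.7 CPM with PBS (log2 0.19, SE 0.14, edgeR adjusted p = 0.65). Slc40a1, which encodes the iron exporter ferroportin, was at 162, 190.5 and 176.5 CPM with asparaginase and 165, 137 and 136 CPM with PBS, overlapping (log2 0.30, SE 0.12, edgeR adjusted p = 0.357). Hamp, the gene of hepcidin, which removes ferroportin from cell surfaces, was at 558, 560.3 and 362 CPM with asparaginase and 374, 289 and 461 CPM with PBS. The lowest treated liver lay inside the PBS range, and the log2 fold change was 0.20 (SE 0.45, edgeR adjusted p = 0.901). Its paralog Hamp2 followed sex within both arms: 58.6, 53.1 and 148 CPM with asparaginase and 184, 133 and 55.5 CPM with PBS (log2 -0.05, SE 0.52, edgeR adjusted p = 0.984). The list of hepcidin and its controls gave 0 calls among 25 genes in edgeR and in DESeq2 (unadjusted, 1 higher and 2 lower), with a median of -0.05.

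Of the chaperones, 1 gene of the endoplasmic reticulum fell, and the fitted log2 fold change was negative in 31 of 36 genes of that compartment, 33 of 38 of the cytosol and 8 of 18 of mitochondria. The difference between these lists was not tested. These proteins fold secreted and membrane proteins, cytosolic proteins and imported mitochondrial proteins. Of 36 endoplasmic reticulum genes, 0 rose and 1 fell in edgeR (10 fell in DESeq2), 14 had lower and 0 had higher non-overlapping groups, and the median was -0.36. The one that fell was Hsp90b1, the HSP90 of this compartment (chr10:86690209-86705509, minus strand), at 385, 412 and 397 CPM with asparaginase and 749, 627 and 685 CPM with PBS. The treated livers lay within a narrow band below all PBS livers, with a log2 fold change of -0.79 (SE 0.14, edgeR adjusted p = 0.0486). This call was lost in 18 of the 28 alternative settings, in which its log2 fold change ran between -0.84 and -0.73. Hsp90b1 shares exons with 1810014B01Rik on the other strand.

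Its partner Hspa5 (BiP), the main HSP70 of the compartment, was at 393, 465 and 369 CPM with asparaginase and 701.5, 543 and 983 CPM with PBS, without overlap (log2 -0.98, SE 0.27, edgeR adjusted p = 0.199). Pdia3, a disulfide isomerase for glycoproteins, was at 267, 269 and 218 CPM with asparaginase and 407.5, 341 and 438 CPM with PBS (log2 -0.74, SE 0.15, edgeR adjusted p = 0.0833). Creld2, a secreted stress-induced folding factor, was at 14.3, 18.1 and 15.4 CPM with asparaginase and 37.6, 27.2 and 70.3 CPM with PBS (log2 -1.61, SE 0.34, edgeR adjusted p = 0.0873). The PBS male was the highest liver for Hspa5, Pdia3 and Creld2, the last 2 of which were named after their values were seen. The sensors and degradation genes of the unfolded protein response gave 0 calls among 26 in edgeR (unadjusted, 6 lower; DESeq2, 3 lower), with a median of -0.17; Xbp1 had a log2 fold change of 0.11 (SE 0.23) and Atf6 one of 0.10 (SE 0.16).

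The endoplasmic reticulum stress element, CCAAT and CCACG separated by 9 bases, was found within 250 bases before the start in 7 of the 28 genes of this list with a promoter in the table (25%), against 35 of 27025 genes overall (0.13%), on either strand. The sequences of Hsp90b1, Hspa5 and Creld2 are shown because these are the chaperone genes described above that carry it; capitals mark both boxes of the element, and the spacer stays in lower case (CGTGG and ATTGG are the boxes on the other strand). They read 5′ to 3′ along the gene's strand.
Hsp90b1, chr10:86705614-86705680, minus strand: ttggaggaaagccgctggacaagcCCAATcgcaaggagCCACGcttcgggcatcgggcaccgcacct
Hsp90b1, chr10:86705509-86705575, minus strand: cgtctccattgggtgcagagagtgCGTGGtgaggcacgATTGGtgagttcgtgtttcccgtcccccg
Hspa5, chr2:34772001-34772067, plus strand: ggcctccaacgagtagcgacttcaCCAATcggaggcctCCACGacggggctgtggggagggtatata
Creld2, chr15:88819496-88819562, plus strand: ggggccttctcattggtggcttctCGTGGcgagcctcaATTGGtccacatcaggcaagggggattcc
The promoter of Hsp90b1 held the element 2 times, 194 to 212 and 89 to 107 bases before its start, and those of Hspa5 and Creld2 held it once, 47 to 65 and 108 to 126 bases before.

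Cytosolic heat shock chaperones gave 0 calls among 38 genes in edgeR (unadjusted, 14 lower; DESeq2, 7 lower), with a median of -0.34 (-0.12 without PBS replicate 3), 12 lower non-overlapping groups and 2 higher ones. Dnaja1, a co-chaperone of HSP70, was at 160, 185 and 169.8 CPM with asparaginase and 240.1, 249 and 293 CPM with PBS (log2 -0.65, SE 0.15, edgeR adjusted p = 0.136). Hsp90aa1, the inducible cytosolic HSP90, was at 94.5, 104 and 74.2 CPM with asparaginase and 141, 114 and 211 CPM with PBS (log2 -0.93, SE 0.25, edgeR adjusted p = 0.18). Hspa8, the constitutive HSP70, was at 780, 839.5 and 896 CPM with asparaginase and 949, 870 and 1291 CPM with PBS, overlapping (log2 -0.35, SE 0.20, edgeR adjusted p = 0.546), and shares 98.7% identity with the counted pseudogene Gm8355. For all 3 genes the PBS male was again the highest liver. Mitochondrial chaperones and proteases gave 0 calls among 18 genes in edgeR and in DESeq2 (unadjusted, 1 higher), with a median of 0.04. Hspa9, the mitochondrial HSP70, was at 525, 498 and 495 CPM with asparaginase and 394, 356 and 431 CPM with PBS (log2 0.32, SE 0.14, edgeR adjusted p = 0.401).

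**Figure D4:**
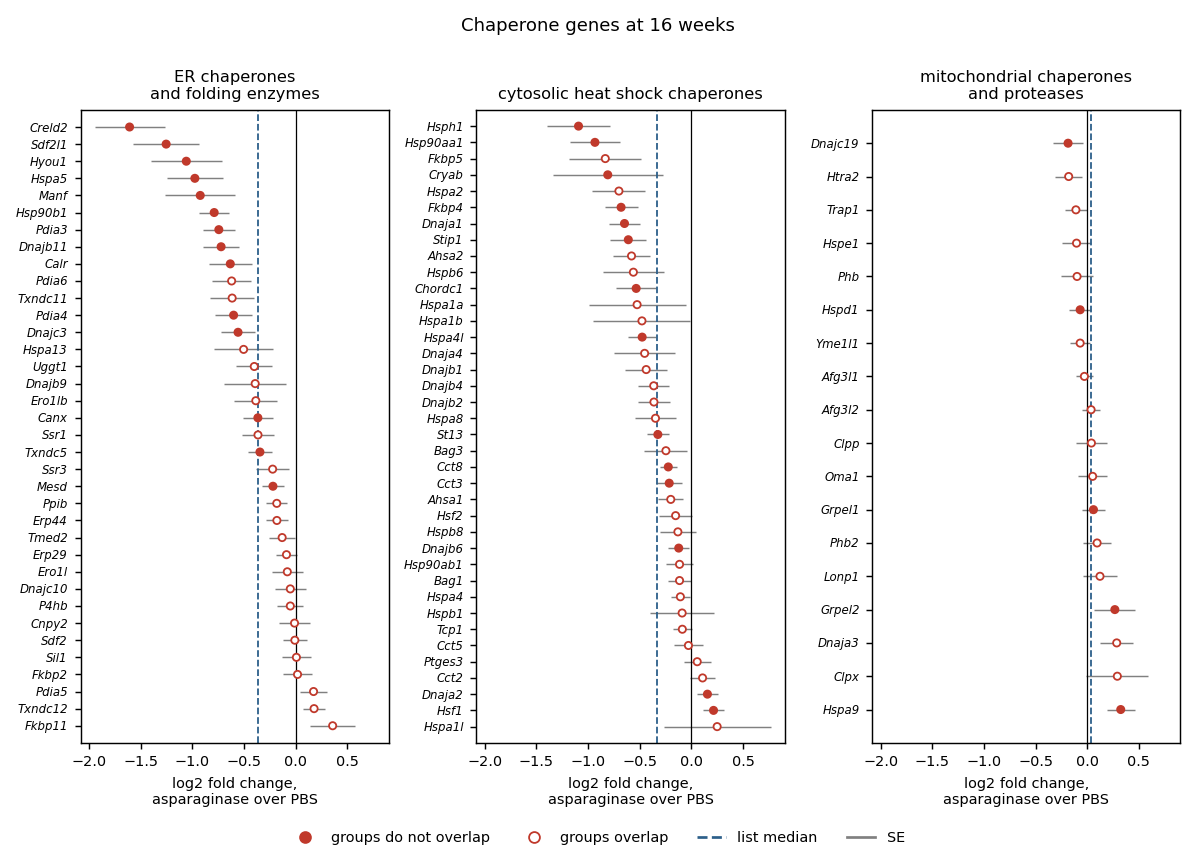
Log2 fold change (asparaginase over PBS) with SE of each chaperone gene at 16 weeks in 3 lists: endoplasmic reticulum (36 genes), cytosol (38) and mitochondria (18). Filled points mark groups that did not overlap and the dashed line is the list median, at -0.36, -0.34 and 0.04; most points of the first 2 lists lie left of 0, and those of the mitochondrial list lie on both sides of it.

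Genes that break down amino acids and dispose of ammonia were more often lower than higher, and 1 passed the test. Of 47 such genes, 1 rose and 0 fell in edgeR (1 rose and 5 fell in DESeq2), 21 had lower and 1 had higher non-overlapping groups, and the median was -0.20 (-0.13 without PBS replicate 3). Cps1, the mitochondrial enzyme that starts the urea cycle, was at 2063, 2304 and 2309 CPM with asparaginase, against 3402, 3605 and 3359 CPM with PBS, without overlap (log2 -0.61, SE 0.17, edgeR adjusted p = 0.187). Also lower and not overlapping, and named after their values were seen, were the urea cycle genes Otc (log2 -0.38, SE 0.14, edgeR adjusted p = 0.311) and Arg1 (log2 -0.42, SE 0.16, edgeR adjusted p = 0.365). The gene that rose was Csad, which makes hypotaurine on the way to taurine, at 446.5, 347 and 158 CPM with asparaginase and 37.8, 49.4 and 185 CPM with PBS. It was higher in males of both arms: the treated female exceeded both PBS females, and the treated males exceeded the PBS male, while the arms overlapped. Its log2 fold change was 1.48 (SE 0.25, edgeR adjusted p = 0.0319); it overlaps Zfp740 on the other strand, and the call was lost in 11 of the 28 alternative settings, the fit without a sex term among them.

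In sterol metabolism, 1 of the paired exporters of cholesterol into bile fell. Abcg5 was at 38.0, 46.0 and 59.5 CPM with asparaginase, against 98.2, 94.4 and 87.1 CPM with PBS (log2 -0.87, SE 0.14, edgeR adjusted p = 0.0202). Its obligate partner and head-to-head neighbour Abcg8 was at 54.9, 60.6 and 64.3 CPM with asparaginase and 94.4, 87.4 and 99.3 CPM with PBS (log2 -0.64, SE 0.12, edgeR adjusted p = 0.0684). Neither gene's groups overlapped; their exons overlap on opposite strands, so their counts may not be independent. Abcb4, the exporter of phosphatidylcholine into bile, named after its values were seen, was higher in each treated liver, at 208, 195 and 242 CPM with asparaginase and 148, 148 and 161 CPM with PBS (log2 0.52, SE 0.11, edgeR adjusted p = 0.0933). Soat2, which esterifies cholesterol, rose: it was at 66.0, 51.6 and 56.8 CPM with asparaginase and 25.9, 25.1 and 28.9 CPM with PBS (log2 1.09, SE 0.18, edgeR adjusted p = 0.0283). Over the 19 genes of sterol and bile export, 0 rose and 1 fell, with a median of -0.09.

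Bile acid synthesis gave 0 calls among 14 genes in edgeR (unadjusted, 1 higher and 3 lower; DESeq2, 2 lower), with a median of -0.19 (-0.30 without PBS replicate 3). Cyp7a1, its rate-limiting enzyme, was at 299.5, 348 and 230.1 CPM with asparaginase and 256, 471.5 and 145 CPM with PBS, overlapping (log2 0.25, SE 0.64, edgeR adjusted p = 0.917). Cholesterol synthesis and uptake gave 0 calls among 25 genes in edgeR and in DESeq2 (unadjusted, 0), with a median of -0.24 that became 0.25 without asparaginase replicate 3, -0.03 without PBS replicate 2 and -0.86 without PBS replicate 3. Fatty acid synthesis and storage gave 0 calls among 31 genes in edgeR (unadjusted, 3 higher and 4 lower; DESeq2, 1 higher and 2 lower), with a median of -0.03. Fasn, the fatty acid synthase gene, was at 216, 242 and 347 CPM with asparaginase and 621, 421 and 361 CPM with PBS (log2 -0.62, SE 0.54, edgeR adjusted p = 0.711). Its regulator Srebf1 was at 118, 179.6 and 169 CPM with asparaginase and 294, 339.7 and 249 CPM with PBS, without overlap (log2 -0.83, SE 0.25, edgeR adjusted p = 0.233).

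Fatty acid oxidation gave 0 calls among 33 genes in edgeR (unadjusted, 2 higher and 2 lower; DESeq2, 1 lower), with a median of -0.05. Cpt1a, which admits fatty acids to mitochondria, was at 311, 322 and 406 CPM with asparaginase and 344, 336 and 306 CPM with PBS (log2 0.15, SE 0.19, edgeR adjusted p = 0.805). The coactivator gene Ppargc1a was at 3.62, 4.24 and 4.63 CPM with asparaginase and 8.72, 11.8 and 6.41 CPM with PBS, without overlap (log2 -0.93, SE 0.27, edgeR adjusted p = 0.222). In the list of glucose production and use, Pck2 was the only gene of 32 to rise and 0 fell, with a median of -0.06. Pck1, the cytosolic counterpart of Pck2 and the gluconeogenic enzyme of liver, was at 1120, 2075 and 2249 CPM with asparaginase and 2329, 1879 and 2318 CPM with PBS (log2 -0.22, SE 0.24, edgeR adjusted p = 0.782). Drug-metabolizing cytochromes gave 0 calls among 39 genes in edgeR and in DESeq2 (unadjusted, 3 higher and 1 lower), with a median of -0.15 (-0.10 without PBS replicate 3).

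Cxcl13 and Marco rose. Cxcl13, the chemokine that draws B cells through CXCR5 (chr5:95956951-95961068, plus strand), was at 17.2, 17.7 and 17.2 CPM with asparaginase, against 3.24, 4.44 and 2.31 CPM with PBS. The treated livers of both sexes lay close together, and the log2 fold change was 2.52 (SE 0.27, edgeR adjusted p = 0.00124). Marco, a scavenger receptor of macrophages that binds bacteria (chr1:120474538-120505024, minus strand), was at 53.7, 71.5 and 46.0 CPM with asparaginase and 7.76, 15.4 and 7.74 CPM with PBS (log2 2.49, SE 0.33, edgeR adjusted p = 0.00587). In bulk liver, more cells of a type and more RNA per cell cannot be told apart. Marco was the only gene of 20 Kupffer cell and macrophage markers to rise; 3 had higher and 1 had lower non-overlapping groups, and the median was 0.11, against 0.40 without asparaginase replicate 3, -0.02 without asparaginase replicate 2 and -0.21 without PBS replicate 3. The markers summed to 880, 1147 and 925 CPM with asparaginase and to 977, 1013 and 735 CPM with PBS, and Clec4f, which marks Kupffer cells, was at 75.5, 99.5 and 83.9 CPM with asparaginase and 126, 129 and 87.9 CPM with PBS (log2 -0.31, SE 0.19, edgeR adjusted p = 0.589). B-cell markers summed to 4.43, 10.4 and 21.2 CPM with asparaginase and 10.9, 31.5 and 7.28 CPM with PBS, with 0 calls among 11 in edgeR and in DESeq2 (unadjusted, 0).

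Monocyte and neutrophil markers gave 0 calls among 15 in edgeR (unadjusted, 2 higher; DESeq2, 1 higher), with a median of 0.58 (0.15 without PBS replicate 1); Itgam, their surface integrin, was at 4.57, 3.97 and 3.04 CPM with asparaginase and 1.53, 2.57 and 1.40 CPM with PBS (log2 1.07, SE 0.34, edgeR adjusted p = 0.259). Interferon-inducible genes gave 0 calls among 38 in edgeR (unadjusted, 10 lower; DESeq2, 2 lower). Their median was -0.34, 0.06 without asparaginase replicate 3 and -0.73 without PBS replicate 3, with 5 lower and 0 higher non-overlapping groups. Markers of proliferating cells gave 0 calls among 24 in edgeR (unadjusted, 12 higher; DESeq2, 8 higher), with a median of 0.81 and 4 higher non-overlapping groups. Mki67, which marks cycling cells, was at 3.45, 9.84 and 5.56 CPM with asparaginase and 2.04, 2.51 and 0.560 CPM with PBS (log2 2.14, SE 0.59, edgeR adjusted p = 0.195).

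The other genes that rose came from several pathways. Extl1, a glycosyltransferase-like gene of heparan sulfate synthesis (chr4:134356372-134383850, minus strand), was at 20.96, 25.4 and 27.6 CPM with asparaginase and 2.82, 3.65 and 2.52 CPM with PBS (log2 3.14, SE 0.37, edgeR adjusted p = 0.00198). Gpat3, which starts glycerolipid synthesis, was at 9.95, 9.28 and 27.5 CPM with asparaginase and 4.35, 5.64 and 1.68 CPM with PBS (log2 2.48, SE 0.29, edgeR adjusted p = 0.00198). For Gpat3 the treated female stood far above the treated males, and without the sex term it was not called. Arhgef2, an activator of the GTPase RHOA, was at 11.5, 12.4 and 19.2 CPM with asparaginase and 4.08, 4.41 and 3.99 CPM with PBS (log2 1.90, SE 0.28, edgeR adjusted p = 0.0127). Mtbp, named for its binding of MDM2, was at 2.11, 1.82 and 2.67 CPM with asparaginase and 1.08, 1.14 and 0.420 CPM with PBS (log2 1.67, SE 0.25, edgeR adjusted p = 0.0167). The exons of Gpat3, Arhgef2 and Mtbp overlap other genes on the opposite strand, so their counts are uncertain to that extent.

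Smaller rises were found for Ank, a membrane exporter linked to pyrophosphate (log2 1.43, SE 0.16), Adora1, an adenosine receptor (1.40, SE 0.19), and Litaf, a late endosome protein (0.84, SE 0.12). So too for Gramd1c, of a family that moves sterol between membranes (0.95, SE 0.15), Grn, which encodes progranulin (0.72, SE 0.12), and Smoc1, a secreted calcium-binding protein (0.71, SE 0.12). Cyp39a1, an oxysterol hydroxylase, was at 41.9, 63.8 and 78.3 CPM with asparaginase and 44.8, 33.3 and 14.0 CPM with PBS: the arms overlapped, and within each sex the treated livers were higher (log2 1.45, SE 0.25, edgeR adjusted p = 0.036). Alpl, alkaline phosphatase (1.03, SE 0.18), Col15a1, a collagen chain (1.16, SE 0.21), the non-coding host gene 1110038B12Rik (0.92, SE 0.17) and ENSMUSG00000096603, which the annotation used does not name (1.10, SE 0.18), completed the 31. The calls of Col15a1, 1110038B12Rik, Cyp39a1, Alpl and Smoc1 were lost in 17, 15, 14, 12 and 11 of the 28 alternative settings. Those of Grn, ENSMUSG00000096603, Gramd1c, Litaf, Ank and Adora1 were lost in 9, 8, 6, 5, 4 and 2. Exons of Adora1, Litaf, Grn and Col15a1 overlap genes on the opposite strand and those of Ank and 1110038B12Rik overlap small RNA genes, so these counts are uncertain to that extent.

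Beside Tfrc, Abcg5 and Hsp90b1, 4 genes fell. Arhgef37, a guanine nucleotide exchange factor gene, was at 4.08, 3.64 and 4.71 CPM with asparaginase and 9.44, 9.81 and 8.89 CPM with PBS (log2 -1.12, SE 0.19, edgeR adjusted p = 0.0286). Tuba4a, an alpha-tubulin, was at 53.7, 47.2 and 35.5 CPM with asparaginase and 67.9, 67.4 and 97.0 CPM with PBS (log2 -0.94, SE 0.16, edgeR adjusted p = 0.0319). Neither gene's groups overlapped. Hip1r, which links clathrin to actin, was at 14.4, 18.5 and 12.8 CPM with asparaginase and 24.1, 23.2 and 24.6 CPM with PBS (log2 -0.73, SE 0.12, edgeR adjusted p = 0.0213). Hsd3b3, a hydroxysteroid dehydrogenase, was at 161, 141 and 116 CPM with asparaginase and 176, 189 and 260.5 CPM with PBS (log2 -0.72, SE 0.13, edgeR adjusted p = 0.0372). It is 95.1% identical to Hsd3b2 over 1122 bases, and Tuba4a and Hip1r share exons with Stk16 and Vps37b on the other strand. The calls of Hsd3b3, Hip1r, Arhgef37 and Tuba4a were lost in 11, 10, 9 and 8 of the 28 alternative settings.

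Set beside the younger mice, each with PBS controls of its own age, the 38 genes had effects of the same sign in 33 cases at 8 weeks and 35 cases at 2 weeks. At 8 weeks, 59 genes were called (0.364% of those tested), of which 6 were called in the same direction at 16 weeks: 15.8% of the 38 and 10.2% of the 59. At 2 weeks, 70 genes were called (0.432%), 10 of them shared in direction: 26.3% of the 38 and 14.3% of the 70. All ages shared 1 model and so 1 estimate of spread. At 2 weeks, PBS replicates 1 and 2 and asparaginase replicate 3 held transcripts of both sexes but were coded by their labelled sex. The 2-week effects, and their differences from those at 16 weeks, rest on that coding. The 16-week effect was the larger in size for 38 of the 38 genes against 8 weeks and for 34 of 38 against 2 weeks; since the genes were chosen for their 16-week effect, this is a description.

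The test of the difference itself found 2 genes whose effect differed between 16 and 8 weeks (0.0123% of those tested, edgeR adjusted p under 0.05, with 1514 genes at an unadjusted p under 0.05). One was Cxcl13, at 1.06, 0.484 and 0.621 CPM with asparaginase and 2.97, 0.861 and 1.82 CPM with PBS at 8 weeks, where its log2 fold change was -0.94 (SE 0.30, edgeR adjusted p = 0.14). The difference of the 2 effects was 3.46 on the log2 scale (SE 0.41, edgeR adjusted p = 0.0229). The other was Acnat2, a peroxisomal acyltransferase gene that overlaps Gm12451 on the other strand. Its 16-week levels were 10.9, 15.1 and 71.0 CPM with asparaginase and 43.1, 40.5 and 8.79 CPM with PBS, higher in females of both arms, and its effect was 0.67 at 16 weeks (edgeR adjusted p = 0.0779) and -0.76 at 8 weeks (edgeR adjusted p = 0.0411). The difference for Acnat2 was 1.43 (SE 0.19, edgeR adjusted p = 0.0475). Asns came next at 2.46 (edgeR adjusted p = 0.0538): its effect was 4.27 at 16 weeks and 1.80 at 8 weeks. The 8-week mice had 8 injections and the 16-week mice 7, so age and number of injections cannot be told apart in these differences.

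Between 16 and 2 weeks no gene passed in edgeR (0 genes, 0% of those tested), with 1005 at an unadjusted p under 0.05; DESeq2 called 150 and limma 1. Psat1, Mthfd2 and Pck2 were nearest among the genes called at 16 weeks; for Psat1 the effects were 5.12 at 16 weeks and 1.74 at 2 weeks, a difference of 3.37 (edgeR adjusted p = 0.0558). Hamp, with an effect of 0.20 on the log2 scale at 16 weeks and 4.81 at 2 weeks, had the same adjusted p for its difference.

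**Figure D5:**
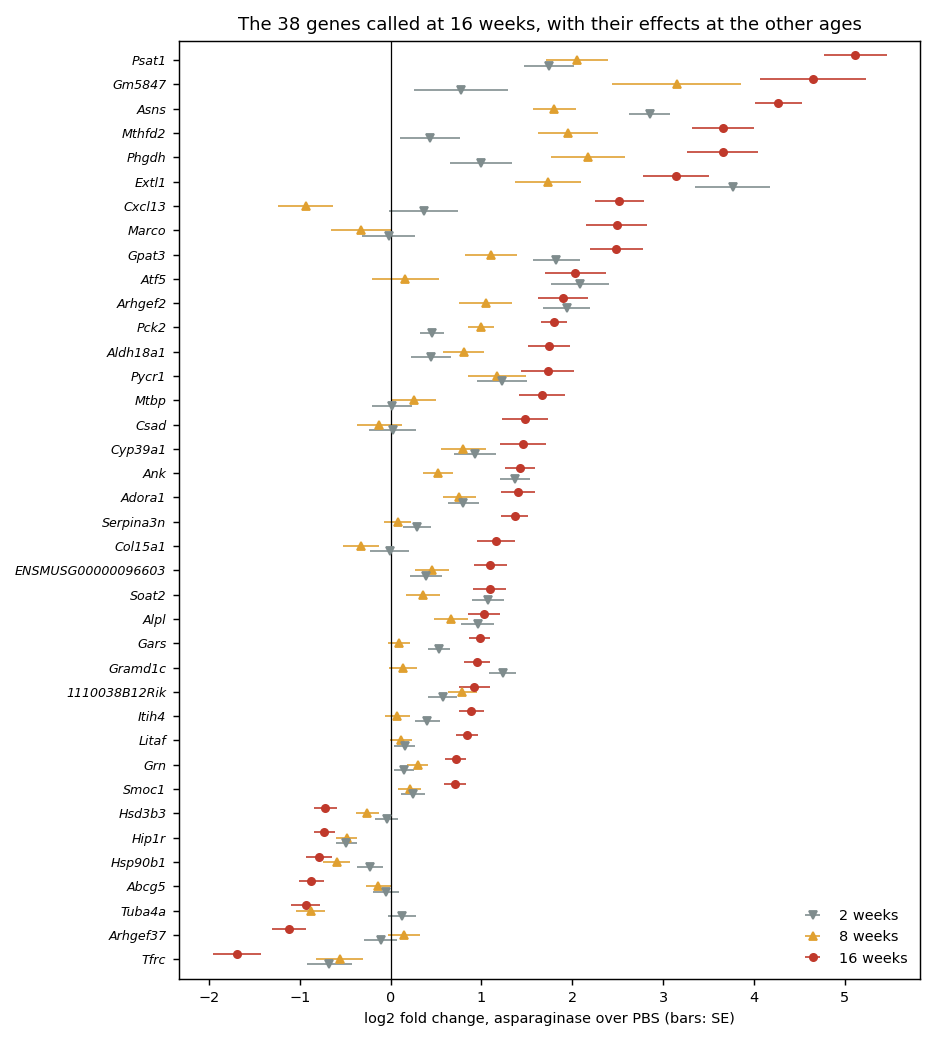
Log2 fold change, asparaginase over PBS (horizontal axis, bars SE), of the 38 genes called at 16 weeks, with the effect of the same gene at 2 and 8 weeks. Psat1 stands at 5.12 at 16 weeks against 2.05 and 1.74 at 8 and 2 weeks, and Cxcl13 and Marco are above 2 at 16 weeks and below 0 at 8 weeks. Only the points of Extl1, Gramd1c, Atf5 and Arhgef2 are larger at 2 weeks than at 16 weeks. Their differences, 16 minus 2 weeks, were -0.63 (SE 0.56), -0.28 (SE 0.21), -0.05 (SE 0.45) and -0.04 (SE 0.38), with edgeR adjusted p of 0.925 or more.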

How the data were processed

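RNA of 18 mouse livers was measured by RNA-seq after poly(A) selection, and the authors deposited 1 table of raw counts per gene, whole numbers with no scaling. The submitters' processing notes name TopHat2 (2.0.9), TopHat, DESeq2, GRCm38 and mm10 without their roles; which counter and annotation were used, and whether strand was, is not given in the sources used here. Per the labels, RNA of all ages was prepared and sequenced together. Of 37315 gene IDs, 35533 matched GENCODE M21, which gave symbols, GRCm38 positions and exon overlaps.

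Counts were fitted with edgeR 4.0.16 (R 4.3.3) quasi-likelihood over all 18 libraries, which share 1 estimate of spread, with a term for each age and treatment and a sex term within each age (0.5 for males, -0.5 for females). Genes passed edgeR's filter at a minimum count of 10 and a minimum total of 15, libraries were scaled by TMM, and a call is a Benjamini-Hochberg adjusted p under 0.05. SE is the log2 fold change over the root of F. CPM use the scaled library sizes, of 24690871 to 46949361 counts before scaling at 16 weeks, so a gene under 1 CPM rests on few reads. The fit was tested on simulated data first. Alternatives were DESeq2 1.42.0, limma 3.58.1 (voom), other scaling, filters, terms and subsets of libraries, and each library left out.

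The 6 libraries, the gene lists and the named genes were chosen with earlier results of these data known. Named genes were a fixed list of 41, the 15 largest rises and falls among called genes whose higher group averaged 1 CPM or more, and, for each list, its called members or otherwise the 4 of smallest p. Genes named outside this rule were chosen after their values were seen: Abcb4, Aldh1l2, Apcs, Arg1, Aspg, Asrgl1, Atf6, Clec4f, Creld2, Crp, Eif4ebp1, Fga, Fth1, Hpx, Nars, Otc, Pdia3, Sars, Sds, Serpina3m, Socs3, Stat3 and Xbp1, and the smaller of the 31 rises, given so that all called genes are named. Promoters came from a RefSeq table of GRCm38.p6 with 27025 genes, of which the 250 bases before each start were searched.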

Additional observations from a re-analysis of the deposited data

Results flagged for a closer look

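The effect of asparaginase on 2 genes differed between 16 and 8 weeks by the test of the difference itself, over all genes tested. Mice of 8 weeks had 8 injections and those of 16 weeks 7, so age and number of injections cannot be told apart. For Cxcl13 the log2 fold change was 2.52 at 16 weeks and -0.94 at 8 weeks, a difference of 3.46 (SE 0.41, edgeR adjusted p = 0.0229). Its 16-week level was 17.2 to 17.7 CPM with asparaginase and 2.31 to 4.44 CPM with PBS. For Acnat2 the log2 fold change was 0.67 at 16 weeks and -0.76 at 8 weeks, a difference of 1.43 (SE 0.19, edgeR adjusted p = 0.0475). Acnat2 was at 10.9 and 15.1 CPM in the 16-week asparaginase males and 71.0 CPM in the female, against 43.1 and 40.5 CPM in the PBS females and 8.79 CPM in the male. The number of genes passing this test was 0 without asparaginase replicate 2, PBS replicate 1 or PBS replicate 3 of 16 weeks, 0 without asparaginase replicate 1 of 8 weeks, and 1 to 8 without any other single library.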

How the results depend on the processing

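All 38 called genes kept their direction in the 28 alternative settings. Counts of calls moved more, given here as genes higher, genes lower, and genes whose effect differed from that at 8 and at 2 weeks, against 31, 7, 2 and 0 in the reported fit. They were 206, 239, 239 and 150 with DESeq2, 32, 6, 2 and 1 with limma, 65, 18, 10 and 16 with no filter on low counts, 18, 1, 0 and 1 with no sex term, and 15, 0, 0 and 0 at an adjusted p under 0.01. With the 16-week libraries alone, 42 were higher and 29 lower with a sex term, and 14 and 2 without it. With the 12 adult libraries, 39 were higher, 8 lower and 0 differed from 8 weeks. Without the 3 mixed 2-week libraries the counts were 26, 3, 1 and 0. Other scalings (RLE, or library sizes without the major urinary protein genes) gave 31 or 30 higher and 7 lower. Of the 38 called genes, 38 were still called by DESeq2, 36 by limma, 18 with no sex term, 5 without asparaginase replicate 3 and 7 without PBS replicate 3. Leaving out any 1 of the 18 libraries gave 5 to 44 genes higher, 0 to 11 lower, 0 to 8 that differed from 8 weeks and 0 to 3 that differed from 2 weeks; the fewest higher calls came without asparaginase replicate 3 (5) and PBS replicate 3 (8) of 16 weeks, and 0 were lower without either of them or without asparaginase replicate 1. The cause of these shifts was not tested. Saa1 and Fgf21, not called in the reported fit, were called in 4 and 6 of the 28 settings. Genes under about 1 CPM rest on few reads. No paired analysis was possible because the numbers in the sample titles run through the series and pair no mice between the arms.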

Other observations

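Clock genes gave 0 calls among 18 in edgeR (unadjusted, 5 lower; DESeq2, 1 lower), with a median log2 fold change of -0.22 (-0.04 without PBS replicate 3) and 4 lower non-overlapping groups. Haem synthesis and breakdown gave 0 calls among 13 (unadjusted, 1 higher and 3 lower; DESeq2, 0), with a median of -0.09. Metallothioneins and zinc transporters gave 0 calls among 8 in edgeR and in DESeq2 (unadjusted, 2 higher), with a median of 0.01. Of the 8 genes, 4 had a positive and 4 a negative log2 fold change, and all had groups that overlapped. The metallothionein genes Mt1 and Mt2 had log2 fold changes of 1.73 and 1.97, which stayed positive in all 28 settings. Targets of p53 gave 0 calls among 14 (unadjusted, 1 higher and 2 lower; DESeq2, 1 higher and 1 lower), with a median of 0.02.

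Among other cells of the liver, 14 markers of endothelial cells summed to 359.9, 360.5 and 413 CPM with asparaginase, against 381, 372 and 361 CPM with PBS, with a median log2 fold change of 0.05. Markers of stellate cells and fibroblasts summed to 241, 255 and 286 CPM with asparaginase, against 315, 335 and 289 CPM with PBS, a median of -0.18 (-0.30 without PBS replicate 1) over 15 genes with 1 higher and 4 lower non-overlapping groups. Markers of dendritic cells summed to 76.2, 105 and 114 CPM with asparaginase, against 232, 149 and 114 CPM with PBS, a median of -0.28 (-0.17 without PBS replicate 3, -0.18 without asparaginase replicate 1) over 14 genes. None of these 3 lists held a call in edgeR (0; unadjusted, 0 and 0 for endothelial cells, 1 higher for stellate cells and 3 lower for dendritic cells; DESeq2, 1 higher for stellate cells and 1 lower for dendritic cells).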
